A study of Rattus norvegicus with 18 samples.

Results

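The 9 rat genes described here encode enzymes that make pyrimidine nucleotides and thymidylate: Cad, Dhodh, Umps, Ctps1, Tyms, Dtymk, Dut, Tk1 and Uck2. They were chosen by symbol, and 9 of the 9 symbols were found among the 13188 genes of the expression table. Their mRNA was measured by RNA-seq in 18 cultures of HO15.19, a derivative of the rat fibroblast line Rat1 without functional endogenous myc (myc-/-). The cultures form 6 groups of 3. Untransfected cells were either myc-/- or carried added human MYC (named myc-/- + MYC). A control siRNA was given to both kinds of cells (myc-/- siCtrl, and with MYC, myc-/- + MYC siCtrl). The myc-/- + MYC cells were in addition transfected with an siRNA against the aryl hydrocarbon receptor, AHR, a ligand-activated transcription factor. This was either siAHR-2 or siAHR-5. Per the labels, siRNA was used at 40 nM, transfected cells were collected 48 h later, and serum was 10%. All 6 groups share the deletion of myc. Per the paper, MYC was expressed from the retroviral vector pBabe, so its promoter is not that of the rat gene. Nothing in the sources says that the 3 cultures of a group were separate derivations of a line, so p-values measure the spread between these cultures only.

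Pyrimidine nucleotides are the uridine, cytidine and thymidine building blocks of RNA and DNA. Cells make the first of them, UMP, de novo from glutamine, bicarbonate and aspartate, or recover it from nucleosides by salvage kinases. UMP then leads to CTP for RNA, and through dUMP to dTMP, the building block found only in DNA. Cad is widely known as a MYC target gene, and several enzymes of the dTMP branch are known to be transcribed mainly in S phase.

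The values used are the log2 expression values that the authors deposited, and they are compared here only within 2 sets of libraries, because the sets had been put on different scales. One set is made up of 6 libraries, from myc-/- siCtrl cultures as the cells without MYC and from untransfected myc-/- + MYC cultures. The other is made up of 12 libraries, from untransfected myc-/- cultures and from MYC-expressing cultures that received siCtrl, siAHR-2 or siAHR-5. In each set the transfection label changes together with MYC, so the 2 cannot be told apart in either MYC comparison. This rests on the labels as given. If the transfection labels of the myc-/- and myc-/- siCtrl groups were exchanged, transfection would be alike on both sides of each comparison, which was not tested. Read depth is unknown. Of 11 fibroblast markers, the intermediate filament gene Vim was at 18.32 to 19.70 and the matrix gene Fn1 at 17.67 to 20.63 in all libraries, while Col1a2 was at 3.64 to 4.13. Lum was at 5.80 to 9.38, and Dcn at 11.19 to 11.77 in the smaller set but 6.66 to 7.78 in the larger. Col1a1 fell with MYC, with a log2 fold change (log2FC) of -1.73 in the smaller set and -5.95 in the larger. Group means of Fn1 were also lower with MYC, at 17.70 against 19.46 in the smaller set and 18.61 (siCtrl) against 20.41 in the larger. Pdgfrb was at 12.60 against 14.33 and 11.77 against 14.85 in the same order, and Thy1 at 12.73 against 13.88 and 11.39 against 13.58. Col3a1 was higher with MYC in the smaller set, at 16.99 against 15.69, and at 14.80 against 14.88 in the larger. Of 4 epithelial markers, Cdh1 and Epcam were at 4.31 or below and Krt19 at 2.42 to 7.73. Krt8 was at 6.02 to 9.05 and rose with MYC, by log2FC 1.70 and 1.17 in the smaller and the larger set. Of 3 leukocyte markers, Ptprc was at 2.84 to 4.65 and Cd68 at 6.76 to 7.55, while Cd3e was at 6.63 to 9.39 and fell with MYC, with log2FC of -2.09 and -1.13. The 3 endothelial markers were at 7.57 or below, and by limma 0 of them passed with MYC in either set (at an unadjusted p below 0.05, 3 differed in the smaller set and 0 in the larger). In the smaller set, 37.8% of all genes were higher and 39.7% lower at that unadjusted p. With MYC, 5 of the 11 fibroblast markers passed as lower and 1 as higher in the set of 6, and 7 passed as lower in the set of 12, by the cutoffs given below. Of all genes, 14.3% passed as lower and 12.5% as higher in the set of 6, and 14.7% as lower in the set of 12. The part of the markers in the results was not tested. The Ahr value was lower with either siRNA, by a log2FC of -1.29 with siAHR-2 and -1.39 with siAHR-5. The row for rat Myc still held signal and was lower with MYC, by log2FC -1.26 and -2.68, and as a value for a whole gene it does not check the deletion. In the set of 12, myc-/- replicate 2 stood apart from its group. The SD of its log2 differences from the other 2 cultures was 0.171 to 0.174, against 0.0706 to 0.122 for the other pairs of cultures. As these are bulk cultures, a lower value cannot be told apart from fewer cells that express the gene.

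Promoter windows of RefSeq (assembly GRCr8, 250 bases before to 50 after the start of the gene, written 5′ to 3′ on the strand of the gene) were found for 7 of the 9 enzymes, with 2 windows for Dut. The windows were searched on both strands for the E-box CACGTG to which MYC binds with its partner MAX, for the E2F motifs TTTGGCGC and TTTCCCGC, and for CCAAT. Shown are Cad and Uck2, which lay at opposite ends of the MYC response in the set of 12, and Tyms and Dtymk, which hold the E2F and E-box letters. All 4 genes lie on the minus strand, Cad at chr6:31034987-31035286, Uck2 at chr13:81970987-81971286, Tyms at chr9:120776034-120776333 and Dtymk at chr9:101771684-101771983. Capitals mark motif letters.
Cad: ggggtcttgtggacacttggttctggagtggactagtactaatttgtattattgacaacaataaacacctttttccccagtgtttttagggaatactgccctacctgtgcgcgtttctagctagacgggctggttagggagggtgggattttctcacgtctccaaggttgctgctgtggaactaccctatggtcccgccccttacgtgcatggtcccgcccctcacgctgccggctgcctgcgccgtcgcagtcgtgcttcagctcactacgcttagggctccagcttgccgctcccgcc
Uck2: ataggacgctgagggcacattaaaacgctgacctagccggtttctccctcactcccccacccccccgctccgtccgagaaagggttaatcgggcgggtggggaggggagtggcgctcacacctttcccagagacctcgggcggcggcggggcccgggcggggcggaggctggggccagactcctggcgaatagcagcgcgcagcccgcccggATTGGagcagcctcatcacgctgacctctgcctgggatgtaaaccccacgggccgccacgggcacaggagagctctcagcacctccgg
Tyms: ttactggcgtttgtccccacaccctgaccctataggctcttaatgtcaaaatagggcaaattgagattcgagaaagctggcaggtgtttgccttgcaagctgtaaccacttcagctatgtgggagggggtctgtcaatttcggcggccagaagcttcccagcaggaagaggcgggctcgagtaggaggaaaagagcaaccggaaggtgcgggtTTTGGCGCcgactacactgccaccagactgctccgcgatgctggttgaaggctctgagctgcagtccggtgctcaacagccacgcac
Dtymk: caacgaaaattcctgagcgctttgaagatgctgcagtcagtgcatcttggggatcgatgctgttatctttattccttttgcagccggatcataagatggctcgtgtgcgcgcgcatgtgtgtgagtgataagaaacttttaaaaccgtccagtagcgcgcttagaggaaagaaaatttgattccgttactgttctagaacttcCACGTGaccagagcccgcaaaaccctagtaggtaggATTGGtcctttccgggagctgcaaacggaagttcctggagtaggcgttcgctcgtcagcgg
The E-box letters occurred in the Dtymk window, 47 to 42 bases before the start, and in no window of the other enzymes. Of 33365 windows of the same length, 6.43% held them, or 8.73% of the 10312 windows of genes in the expression table. TTTGGCGC occurred in the Tyms window, 37 to 30 bases before the start, and in 0.495% of all windows or 0.853% of those of genes in the table. TTTCCCGC occurred in none of the enzymes' windows and in 0.977% and 1.82% of these windows. CCAAT, read on the other strand as ATTGG, occurred in Dtymk at 11 to 7 and in Uck2 at 38 to 34 bases before the start, and in 37.5% of windows by either count. These matches describe letters in a window of 300 bases and are not shown to be binding sites. The Cad window holds none of these letters, which says nothing of sequence beyond it. Umps and Dhodh have no entry in the promoter table.

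The first comparison asks how the enzymes differ between myc-/- cells with and without human MYC. Passing meant a Benjamini-Hochberg adjusted p from limma of 0.01 or less together with a log2FC of 0.585 or more in either direction, which is a fold of 1.5. In the set of 6, Cad and Dhodh rose, Tyms fell, and 6 of the 9 enzymes did not pass. Over all genes, 12.5% passed as higher and 14.3% as lower. In the set of 12, Cad, Dhodh and Dut rose, none of the 9 fell, and 6 did not pass, where 10.8% of all genes passed as higher and 14.7% as lower. Cad and Dhodh, which catalyse the first steps of de novo UMP synthesis, thus rose in both sets. The median log2FC of the 9 enzymes was 0.18 in the set of 6 and 0.39 in that of 12, while the median over all genes lay within 0.01 of 0. The cultures with and without MYC did not overlap for 8 of the 9 enzymes in either set, which is true of 78.8% of all genes in the set of 6 and 70.5% in that of 12. At an adjusted p below 0.05 with no fold cutoff, limma called the same number, 8 of the 9, in either set, against 76.2% and 64.7% of all genes.

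**Figure D1:**
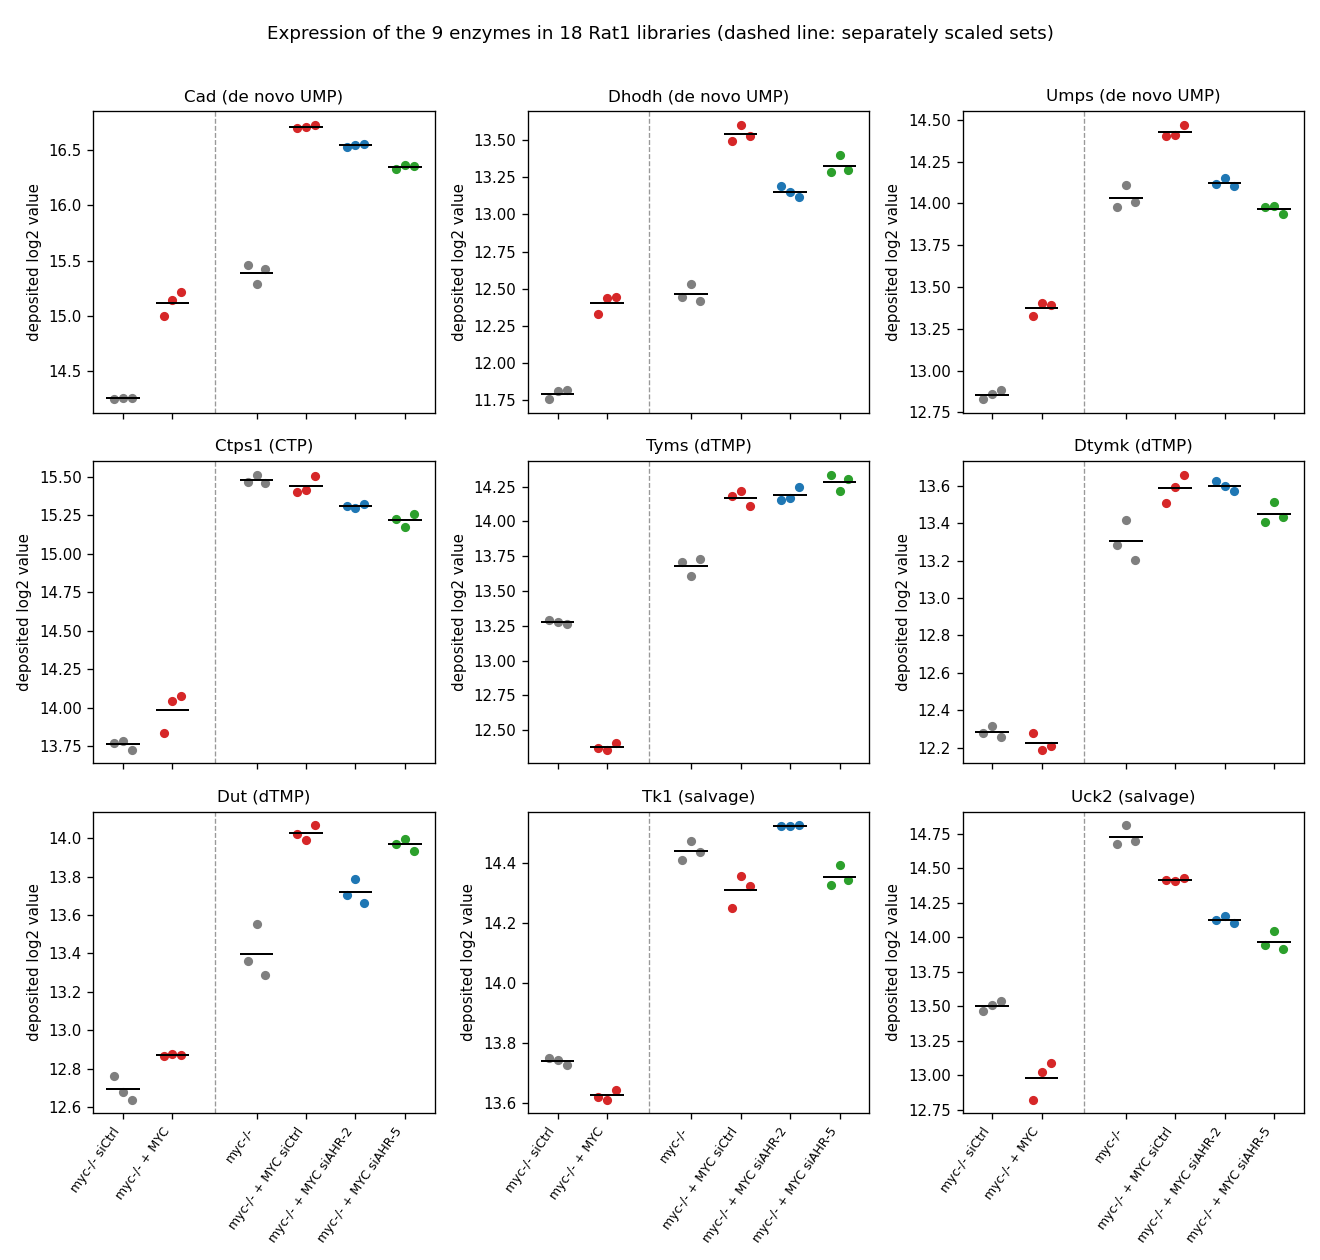
Deposited log2 value (vertical axis) of each of the 9 enzymes in the 18 libraries, with 1 point per culture, a bar at the mean of each group of 3, and a dashed line between the separately scaled sets. Cad and Dhodh are higher with MYC on both sides of the dashed line, while Tyms is lower with MYC on the left and higher on the right.

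Cad encodes the large protein that carries out the first 3 reactions of de novo pyrimidine synthesis, including the rate-limiting carbamoyl phosphate synthetase. Its log2 values in the set of 6 were 14.24, 14.26 and 14.26 in myc-/- siCtrl cultures and 15.00, 15.14 and 15.22 in myc-/- + MYC cultures. Those in the set of 12 were 15.46, 15.29 and 15.42 in myc-/- cultures and 16.70, 16.71 and 16.73 in myc-/- + MYC siCtrl cultures. In both sets every culture with MYC lay above every culture without it. Cad rose by a log2FC of 0.87 (SE 0.046, a fold of 1.83, limma adjusted p = 1.26e-08) in the set of 6. It rose by 1.32 (SE 0.050, a fold of 2.5, limma adjusted p = 4.66e-06) in the set of 12, where it was at rank 249 of the 13188 genes, counted from the highest log2FC.

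Dhodh encodes dihydroorotate dehydrogenase, the mitochondrial enzyme that oxidises dihydroorotate to orotate. Its log2 values were 11.76, 11.81 and 11.82 in myc-/- siCtrl cultures and 12.33, 12.44 and 12.44 in myc-/- + MYC cultures of the set of 6. They were 12.45, 12.53 and 12.42 in myc-/- cultures and 13.49, 13.60 and 13.53 in myc-/- + MYC siCtrl cultures of the set of 12. The groups were separate in both sets. The log2FC was 0.61 (SE 0.041, a fold of 1.53, limma adjusted p = 8.98e-08) in the set of 6, just past the fold cutoff, and 0.57 with each library centred on its median, just short of it. Dhodh rose in the set of 12 by 1.08 (SE 0.045, a fold of 2.11, limma adjusted p = 6.64e-06).

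Umps encodes UMP synthase, which converts orotate to UMP and so completes the de novo route. Its log2 values were 12.83, 12.86 and 12.88 without MYC and 13.32, 13.41 and 13.39 with MYC in the set of 6. Those in the set of 12 were 13.98, 14.11 and 14.01 without and 14.40, 14.41 and 14.47 with MYC. Cultures with MYC lay higher in both sets, but by less than the fold cutoff. The log2FC was 0.52 (SE 0.033, limma adjusted p = 6.50e-08) in the set of 6, or 0.62 and past the cutoff after quantile normalization, and 0.39 (SE 0.043, limma adjusted p = 3.57e-04) in the set of 12.

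Ctps1 encodes CTP synthase 1, which aminates UTP to CTP. Its log2 values in the set of 6 were 13.77, 13.78 and 13.73 without MYC and 13.84, 14.04 and 14.07 with MYC, a log2FC of 0.22 (SE 0.054, limma adjusted p = 0.00283) that did not reach the fold cutoff and was 0.41 after quantile normalization. The other set gave 15.47, 15.51 and 15.46 in myc-/- cultures and 15.40, 15.41 and 15.50 in myc-/- + MYC siCtrl cultures. These 2 groups overlapped, and the log2FC was -0.04 (95% interval -0.13 to 0.05), with the opposite sign after quantile normalization (0.16) and median centring (0.0037). In GRCr8 the span of Ctps1 overlaps those of Scmh1 and Slfnl1, whose reads may not be told apart because counting by strand is not stated in the sources used here. Its paralogue Ctps2 had a log2FC with MYC of 0.41 (SE 0.044) in the set of 6 and 0.58 (SE 0.031) in that of 12, short of the fold cutoff in both.

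Tyms encodes thymidylate synthase, which methylates dUMP to dTMP with folate as the carbon donor. Its log2 values were, in the set of 6, 13.29, 13.28 and 13.26 in myc-/- siCtrl cultures and 12.37, 12.36 and 12.41 in myc-/- + MYC cultures. They were 13.71, 13.61 and 13.73 in myc-/- cultures and 14.18, 14.22 and 14.11 in myc-/- + MYC siCtrl cultures of the set of 12. The cultures with MYC were thus all below those without it in the set of 6, and all above them in the set of 12. Tyms fell by a log2FC of 0.90 (SE 0.030, a fold of 0.538, limma adjusted p = 2.84e-10) in the set of 6. Its log2FC in the set of 12 was 0.49 (SE 0.046, limma adjusted p = 1.92e-04) and did not reach the fold cutoff.

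Dut encodes dUTPase, which makes dUMP for Tyms and keeps uracil out of DNA. Its log2 values in the set of 6 were 12.76, 12.68 and 12.64 without MYC and 12.86, 12.88 and 12.87 with MYC, a log2FC of 0.18 (SE 0.037, limma adjusted p = 0.00102), short of the fold cutoff. The other set gave 13.36, 13.55 and 13.29 in myc-/- cultures and 14.02, 13.99 and 14.07 in myc-/- + MYC siCtrl cultures. All 3 cultures with MYC were higher than all 3 without it in each set. Dut rose in the set of 12 by 0.63 (SE 0.071, a fold of 1.55, limma adjusted p = 4.40e-04), but without myc-/- replicate 3 the log2FC was 0.57 and no longer passed the fold cutoff.

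Dtymk encodes thymidylate kinase, which phosphorylates dTMP to dTDP for both the de novo and the salvage route. Its log2 values in the set of 6 were 12.28, 12.32 and 12.26 without MYC and 12.28, 12.19 and 12.21 with MYC. These overlapped, with a log2FC of -0.06 (95% interval -0.14 to 0.02) that was 0.01 after quantile normalization. At an adjusted p below 0.05 with no fold cutoff, limma called Dtymk lower there with median centring and without myc-/- + MYC replicate 1. Its log2FC went as low as -0.0997 over the alternatives. The set of 12 gave 13.28, 13.42 and 13.20 without and 13.51, 13.59 and 13.66 with MYC, which did not overlap. The log2FC there was 0.28 (SE 0.067, limma adjusted p = 0.0108) and did not pass.

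Of the salvage kinases, Tk1 and Uck2 were not higher with MYC in the values as deposited. Tk1 encodes the cytosolic thymidine kinase, which phosphorylates thymidine to dTMP. Its log2 values were 13.75, 13.74 and 13.72 without and 13.62, 13.61 and 13.64 with MYC in the set of 6, and 14.41, 14.47 and 14.44 without and 14.25, 14.36 and 14.32 with MYC in the set of 12. Every culture with MYC lay below every culture without it in its set, by a small margin. The log2FC was -0.11 (95% interval -0.17 to -0.05) in the set of 6, where quantile normalization gave 0.05, and -0.13 (95% interval -0.22 to -0.04) in the set of 12, where quantile normalization gave -0.0149 (limma adjusted p = 0.789). Neither reached the fold cutoff.

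Uck2 encodes uridine-cytidine kinase 2, which phosphorylates uridine and cytidine to UMP and CMP. Its log2 values in the set of 6 were 13.46, 13.51 and 13.54 in myc-/- siCtrl cultures and 12.82, 13.02 and 13.09 in myc-/- + MYC cultures. The other set gave 14.68, 14.81 and 14.70 in myc-/- cultures and 14.42, 14.41 and 14.43 in myc-/- + MYC siCtrl cultures. Cultures with MYC were the lower ones in both sets, without overlap. The log2FC was -0.53 (SE 0.058, limma adjusted p = 6.23e-06) in the set of 6 and -0.31 (SE 0.041, limma adjusted p = 8.93e-04) in that of 12, so that the difference fell short of the fold cutoff in both. Quantile normalization gave -0.18 in the set of 12. Of the other uridine kinase genes, Uckl1 rose in the set of 6 (log2FC 0.80, SE 0.051, limma adjusted p = 5.91e-08) and was at 0.31 (SE 0.051) in the set of 12, while Uck1 was at -0.02 (SE 0.044) in the first and, without overlap, at -0.21 (SE 0.046) in the second.

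**Figure D2:**
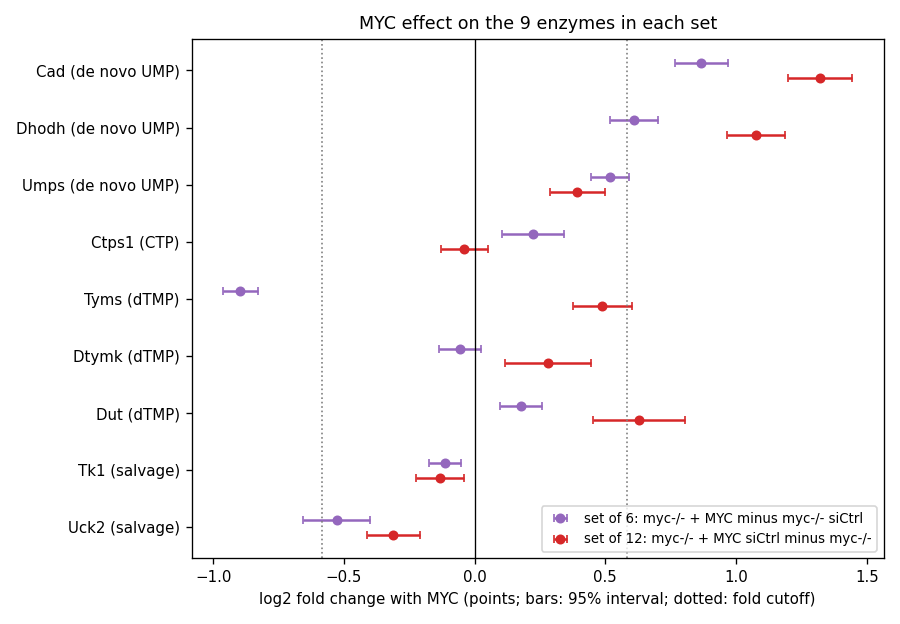
Log2 fold change with MYC (horizontal axis) of each enzyme in the set of 6 (purple) and the set of 12 (red), with 95% intervals as bars and the fold cutoff as dotted lines, from 3 against 3 cultures each. Cad and Dhodh lie to the right of the cutoff in both sets, and Tyms lies at -0.90 in the set of 6 and 0.49 in that of 12.

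Whether the MYC effects differed between the sets was tested directly, in 1 fit of the 12 libraries of both comparisons. Per the labels, the cells without MYC were transfected in the set of 6, and those with MYC in the set of 12. An effect of transfection would thus enter this difference and cannot be told apart from one of MYC. Tyms passed, and 8 of the 9 enzymes did not, where 16.5% of all genes passed. For Tyms the MYC effect was higher in the set of 12 by a log2FC of 1.38 (SE 0.057, 95% interval 1.26 to 1.51, limma adjusted p = 4.71e-11), at rank 209 of the 13188 genes from the most positive difference. The differences for Cad (0.45), Dhodh (0.47) and Dut (0.45) were also positive, with limma adjusted p = 1.08e-04, 2.64e-05 and 2.14e-04, and were short of the fold cutoff. At an adjusted p below 0.05 with no fold cutoff, 6 enzymes had a higher MYC effect in the set of 12, namely these 3, Tyms, Dtymk (0.34) and Uck2 (0.22), and 1, Ctps1 (-0.26), had a lower one, against 24.8% and 30.1% of all genes. Uck2 was no longer called without the mean-variance trend or in 8 of the 12 fits that left out 1 library (log2FC as low as 0.14 without myc-/- + MYC replicate 1, limma adjusted p up to 0.081), nor Ctps1 with median centring (limma adjusted p = 0.0582). Tk1 differed by -0.02 (95% interval -0.12 to 0.09), which was 0.07 with median centring. What differs between the sets apart from the transfection labels is not stated in the sources used here.

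A difference of log2 values within a library does not depend on a factor shared by all its genes, if the values are plain logarithms. Whether the deposited values are such logarithms is unknown. Since gene lengths were not taken into account, only changes of such a difference between groups are described. Cad minus Uck2 was 0.78, 0.74 and 0.72 in myc-/- siCtrl cultures and 2.18, 2.12 and 2.13 in myc-/- + MYC cultures. The same difference in the set of 12 was 0.78, 0.47 and 0.72 in myc-/- cultures and at a mean of 2.29 (SD 0.0072) in myc-/- + MYC siCtrl cultures. This shift is by construction the log2FC of Cad less that of Uck2 as given above, and is no further evidence. It describes Uck2 and not salvage in general. The log2FC of Uckl1 in the set of 6 (0.80) was close to that of Cad (0.87). In the set of 12, however, the log2FC of Uckl1 given above was well below that of Cad. Umps minus Uck2, both enzymes that yield UMP, went from a mean of -0.65 to 0.40 in the set of 6 and from -0.70 to 0.01 in the set of 12. Cad minus Tyms also went up with MYC in both sets, from a mean of 0.98 to 2.74 and from 1.71 to 2.54. In contrast, Tyms minus Tk1, both enzymes that yield dTMP, went from a mean of -0.46 to -1.24 in the set of 6 and from -0.76 to -0.14 in the set of 12, in opposite directions.

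**Figure D3:**
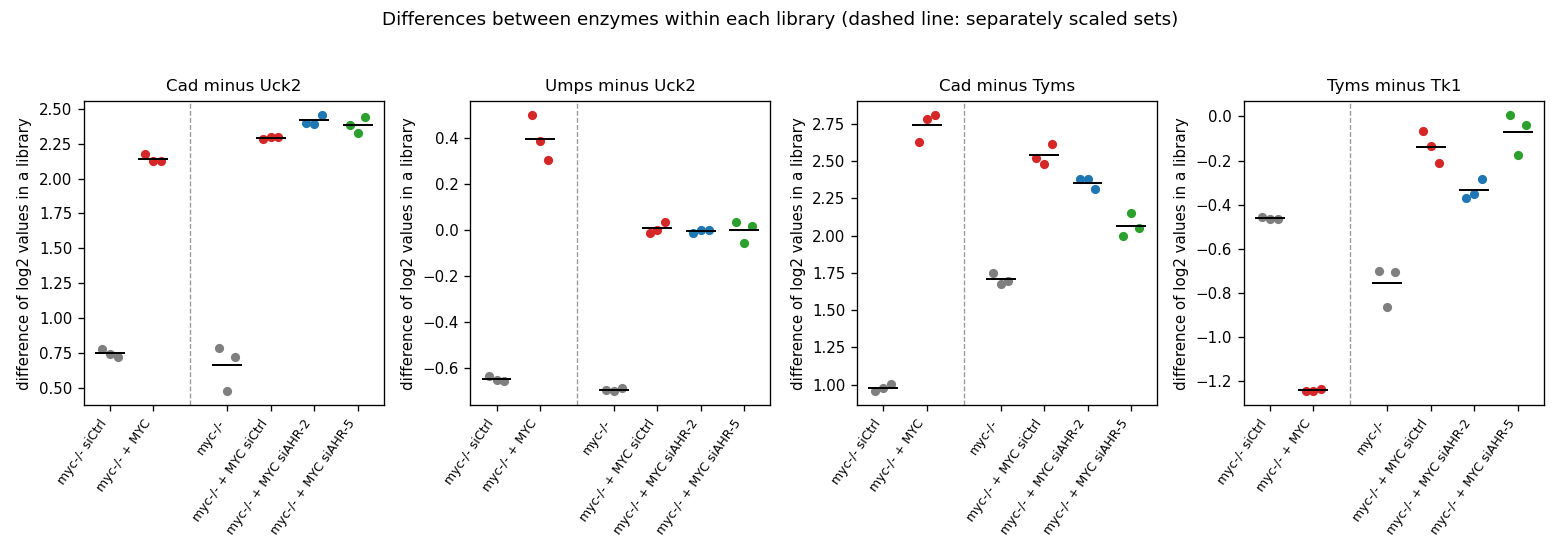
Difference of the log2 values of 2 enzymes within a library (vertical axis), with 1 point per culture and bars at group means, for Cad minus Uck2, Umps minus Uck2, Cad minus Tyms and Tyms minus Tk1. The groups with MYC lie above those without it on both sides of the dashed line in the first 3 panels, and Tyms minus Tk1 moves down on the left and up on the right.

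The second comparison asks how the enzymes differ when AHR is knocked down in myc-/- + MYC cells, with siAHR-2 or siAHR-5 against siCtrl. Both siRNAs are compared with the same 3 siCtrl cultures. None of the 9 enzymes passed both cutoffs with either siRNA, as the largest difference was a log2FC of -0.46, where 0.47% of all genes passed with siAHR-2 and 2.33% with siAHR-5. At an unadjusted p below 0.05, limma called 7 of the 9 enzymes with siAHR-2 and 7 with siAHR-5, against 40.4% and 47.8% of all genes. At an adjusted p below 0.05 with no fold cutoff, 6 enzymes were lower and 1 was higher with siAHR-2, against 15.5% and 13.7% of all genes. With siAHR-5, 5 enzymes were lower and 0 higher by that rule, against 18.1% and 21.1% of all genes. The calls with siAHR-5 moved with the processing, to 7 lower with median centring (Dtymk and Dut added), to 6 lower and 1 higher in the fit to all 18 libraries (Dtymk and Tyms added), to 5 lower and 1 higher (Tyms) after quantile normalization or without siAHR-5 replicate 2, to 6 lower without siCtrl replicate 1 (Dtymk added) and to 4 lower without siAHR-5 replicate 3 (Dhodh lost). The siRNA cultures lay wholly below the siCtrl cultures for 6 enzymes with siAHR-2 and 5 with siAHR-5, which is true of 21.8% and 22.2% of all genes. The median log2FC of the 9 enzymes was -0.17 with siAHR-2 and -0.21 with siAHR-5, against 0.00 and 0.01 over all genes. Of the 11 fibroblast markers, 0 passed with siAHR-2 and 1 with siAHR-5, Thy1 as higher (log2FC 0.75). Vim was lower with both, at -0.36 and -0.48, short of the fold cutoff. At an adjusted p below 0.05, limma called 1 of the 11 higher and 2 lower with siAHR-2. With siAHR-5 it called 3 higher and 2 lower, against the shares of all genes given above. The part of these markers in the results was not tested.

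Among the de novo enzymes, Cad was at 16.53, 16.55 and 16.56 with siAHR-2 and 16.33, 16.37 and 16.36 with siAHR-5, all below the siCtrl cultures given above. The log2FC was -0.17 (SE 0.014, limma adjusted p = 0.00132) and -0.36 (SE 0.019, limma adjusted p = 3.03e-04), folds of 0.891 and 0.779, so that Cad stayed above its myc-/- cultures. Quantile normalization gave -0.06 and -0.21 in their place. Dhodh was at 13.19, 13.15 and 13.11 with siAHR-2, a log2FC of -0.39 (SE 0.035, limma adjusted p = 0.00163). With siAHR-5 it was at 13.28, 13.40 and 13.30, a log2FC of -0.21 (SE 0.044, limma adjusted p = 0.0137, or 0.0525 without siAHR-5 replicate 3). Both groups lay below siCtrl and above myc-/- cultures. Umps was at 14.11, 14.15 and 14.10 with siAHR-2 and at 13.98, 13.98 and 13.94 with siAHR-5. Its log2FC was -0.30 (SE 0.025, limma adjusted p = 0.00123) and -0.46 (SE 0.026, limma adjusted p = 3.44e-04), and its values with siAHR-2 and siAHR-5 overlapped with those of the myc-/- cultures.

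Ctps1, at the step from UTP to CTP, was at 15.31, 15.30 and 15.32 with siAHR-2 and 15.23, 15.17 and 15.26 with siAHR-5, below all siCtrl cultures. The log2FC was -0.13 (SE 0.029, limma adjusted p = 0.0270) with siAHR-2, and the adjusted p was above 0.05 when any 1 of the siAHR-2 cultures was left out. Quantile normalization gave a log2FC of -0.07 (limma adjusted p = 0.149). With siAHR-5 it was -0.22 (SE 0.036, limma adjusted p = 0.00663). The paralogue Ctps2 was at -0.03 (SE 0.024) with siAHR-2 and 0.18 (SE 0.040) with siAHR-5.

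The dTMP branch was less uniform. Dut was at 13.71, 13.79 and 13.66 with siAHR-2, below siCtrl, and at 13.97, 14.00 and 13.94 with siAHR-5, overlapping siCtrl. The log2FC was -0.31 (SE 0.038, limma adjusted p = 0.00371) and -0.06 (95% interval -0.13 to 0.01). Tyms was at 14.15, 14.17 and 14.24 with siAHR-2 and 14.33, 14.22 and 14.30 with siAHR-5. Its log2FC was 0.02 (95% interval -0.08 to 0.11), or -0.01 with median centring, and 0.11 (95% interval 0.01 to 0.22, limma adjusted p = 0.0888). Dtymk was at 13.63, 13.60 and 13.57 with siAHR-2 and 13.41, 13.51 and 13.43 with siAHR-5, with log2FC 0.01 (95% interval -0.09 to 0.12), or -0.02 with median centring, and -0.13 (95% interval -0.25 to -0.01, limma adjusted p = 0.0781).

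The salvage kinases differed from each other. Tk1 was at 14.52, 14.52 and 14.53 with siAHR-2, above all siCtrl cultures, with a log2FC of 0.21 (SE 0.029, limma adjusted p = 0.00513). With siAHR-5 it was at 14.33, 14.39 and 14.34 and overlapped siCtrl, with a log2FC of 0.04 (95% interval -0.04 to 0.13) that was -0.02 with median centring. Uck2 was at 14.13, 14.15 and 14.10 with siAHR-2 and 13.94, 14.04 and 13.92 with siAHR-5, in each case below siCtrl. Its log2FC was -0.29 (SE 0.018, limma adjusted p = 6.37e-04) and -0.45 (SE 0.036, limma adjusted p = 6.86e-04). Uck2 was thus lower with MYC, and lower again with each AHR siRNA in MYC-expressing cells. Because Cad and Umps were lower as well, Cad minus Uck2 within a library averaged 2.29 under siCtrl, 2.42 under siAHR-2 and 2.38 under siAHR-5, and Umps minus Uck2 at 0.01, -0.01 and -0.00. Cad minus Tyms was lower with either siRNA than with siCtrl, at a mean of 2.54 under siCtrl, 2.36 under siAHR-2 and 2.07 under siAHR-5, without overlap between the groups. Tyms minus Tk1 averaged -0.14, -0.34 and -0.07 in the same order, and the siAHR-5 cultures overlapped those of siCtrl.

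**Figure D4:**
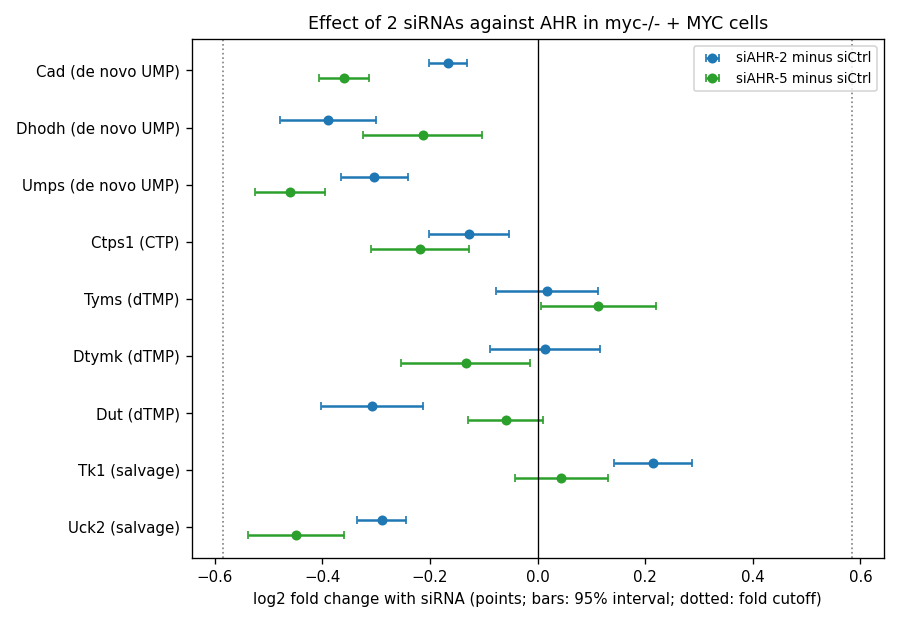
Log2 fold change with siAHR-2 (blue) and siAHR-5 (green) against siCtrl in myc-/- + MYC cells (horizontal axis), with 95% intervals as bars and the fold cutoff as dotted lines, from 3 against 3 cultures with shared siCtrl cultures. All points lie between the dotted lines, with Cad, Dhodh, Umps, Ctps1, Dut and Uck2 below 0 for both siRNAs.

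The siRNAs were also compared with each other. None of the 9 enzymes passed both cutoffs, where 2.18% of all genes did, and 8 of the 9 were at an unadjusted p below 0.05, against 46.8% of all genes. At an adjusted p below 0.05 with no fold cutoff, 8 of the 9 enzymes differed, against 39.1% of all genes. Cad (log2FC of siAHR-5 minus siAHR-2 -0.19, SE 0.016, limma adjusted p = 6.18e-04), Umps (-0.16), Ctps1 (-0.09), Dtymk (-0.15), Tk1 (-0.17) and Uck2 (-0.16) were lower with siAHR-5. Dhodh (0.18) and Dut (0.25, SE 0.036, limma adjusted p = 0.00398) were higher with siAHR-5. That count was 5 without siAHR-2 replicate 1 or siAHR-5 replicate 1 and 4 without siAHR-2 replicate 2, and Cad, Umps, Tk1 and Dut were among the enzymes called each time. Ahr itself did not pass between the siRNAs, with a log2FC of -0.11 and an unadjusted p above 0.05, and its values were 11.97, 11.97 and 12.03 with siAHR-2 and 11.95, 11.76 and 11.94 with siAHR-5.

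Ordered by their means in the set of 12, the groups did not fall in 1 common sequence. Cad went from myc-/- + MYC siCtrl through siAHR-2 and siAHR-5 down to myc-/-, and Dhodh from siCtrl through siAHR-5 and siAHR-2 down to myc-/-, with no overlap between neighbours for either gene. Umps was highest with siCtrl, followed by siAHR-2, myc-/- and siAHR-5, of which siAHR-2 overlapped with myc-/- and myc-/- with siAHR-5. Uck2 had its highest level in myc-/- cultures, followed by siCtrl, siAHR-2 and siAHR-5, again with no overlap. For Dut the siCtrl and siAHR-5 groups overlapped at the top, above siAHR-2 and then myc-/-. Tyms and Dtymk were lowest in myc-/- cultures, without overlap with any MYC-expressing group for Tyms, and with the siAHR-5 group overlapping them for Dtymk. Tk1 was highest with siAHR-2, then in myc-/- cultures, with siAHR-5 and siCtrl overlapping at the bottom. Ctps1 spanned a narrow range, with myc-/- and siCtrl overlapping at the top.

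For each enzyme, the 2 genes with the most similar profile were found among all other genes in the table, as those with the smallest root mean square difference of log2 values over the 18 libraries after centring each gene within each set. For Cad these were Mthfd1 (0.050), a folate enzyme that supplies carbon for nucleotide synthesis, and Ruvbl2 (0.0832). For Umps they were Tkt (0.0369), the transketolase of the pentose phosphate pathway, and the chaperonin gene Cct7 (0.0566). Dtymk was nearest to Pold1 (0.0456), the catalytic subunit of DNA polymerase delta, and then to Aarsd1 (0.0495). Tyms was nearest to Ckap2 (0.0699), a spindle protein gene, and Pmaip1 (0.0857). For Dhodh the 2 genes were Dnaaf5 (0.0707) and Fundc2 (0.0934), for Ctps1 Uqcrfs1 (0.0562) and Thumpd1 (0.0614), and for Dut Taf11 (0.0789) and Atp6v1c1 (0.0789). For Tk1 they were Chrm4 (0.0494) and Gnal (0.0495), and for Uck2 Fkbp6 (0.0627) and Abcf2 (0.0643). Among the enzymes themselves, Cad was nearest to Dhodh at 0.173, and the closest pair among the 9 was Dtymk and Tk1 at 0.127. Many other genes lay closer still. There were 168 genes closer to Cad than Dhodh was, 2531 closer to Dtymk than Tk1 was, and 3289 closer to Tk1 than Dtymk was. This is a description of 18 libraries in 6 groups, with no test.

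A wider list of pyrimidine and thymidylate genes held 44 further symbols, of which 41 were in the table. With MYC, 8 rose and 3 fell in the set of 6, and 11 rose and 1 fell in the set of 12, with a median log2FC of 0.22 and 0.29. Of all genes, 12.5% passed as higher and 14.3% as lower in the smaller set, and 10.8% and 14.7% in the larger. Dpyd, the enzyme that starts the breakdown of uracil and thymine, went from a mean log2 value of 6.47 to 11.16 in the set of 6 and from 8.27 to 11.52 in the set of 12. It rose by log2FC 4.69 (SE 0.064, limma adjusted p = 3.75e-13) and 3.25 (SE 0.051, limma adjusted p = 2.18e-07). Upp1, the uridine phosphorylase that splits uridine, fell in both sets by log2FC 0.83 and 1.08. Besides Dpyd, the genes that rose in both sets were the mitochondrial kinase gene Cmpk2 (1.90 and 2.14), the nucleoside diphosphate kinase gene Nme3 (1.31 and 1.30), the folate enzymes Mthfd1 (0.92 and 1.31) and Shmt1 (0.72 and 0.78), and the nucleoside transporter gene Slc29a2 (0.72 and 0.72).

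Some genes of the wider list passed in 1 set only, among them Dck, Rrm1 and Rrm2. Dck, the deoxycytidine kinase (log2FC -1.19), and Rrm1, the large subunit of ribonucleotide reductase (-0.71), fell in the set of 6. Rrm2, the small subunit of ribonucleotide reductase, rose in the set of 12 (1.17) and was at -0.51 in the set of 6. The MYC effect on Rrm2 (1.68, SE 0.051, limma adjusted p = 2.10e-12), Dck (1.46, SE 0.073, limma adjusted p = 3.69e-10) and Rrm1 (0.61, SE 0.047, limma adjusted p = 4.25e-08) was higher in the set of 12 when the difference was tested, in the same direction as for Tyms. Of the 41 genes, 5 passed as higher in that test and 3 as lower, where 16.5% of all genes passed in either direction. Besides Rrm2, Dck and Rrm1, the higher ones were Prps1 and Slc29a1. The lower ones were Dctd (-0.64, SE 0.054, limma adjusted p = 1.30e-07), the dCMP deaminase that supplies dUMP to Tyms, Dpyd (-1.45) and Slc28a2 (-0.96). Dctd had a log2FC with MYC of 0.35 in the smaller set and -0.29 in the larger, neither past the fold cutoff. Prps1 and Prps2, which make the ribose donor PRPP that Umps consumes, rose in the set of 12 (0.78 and 0.85), as did the transporter genes Slc25a33 (0.80) and Slc29a1 (1.09). The nucleoside transporter gene Slc28a2 (0.92) rose in the set of 6. Of the 41 genes, 0 passed with siAHR-2, where limma called 20 at an unadjusted p below 0.05 (40.4% of all genes), and 2 rose with siAHR-5, Cmpk2 (0.75) and Slc29a1 (1.10), where 2.33% of all genes passed. At an unadjusted p below 0.05, limma called 23 of the 41 with siAHR-5, against 47.8% of all genes.

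**Figure D5:**
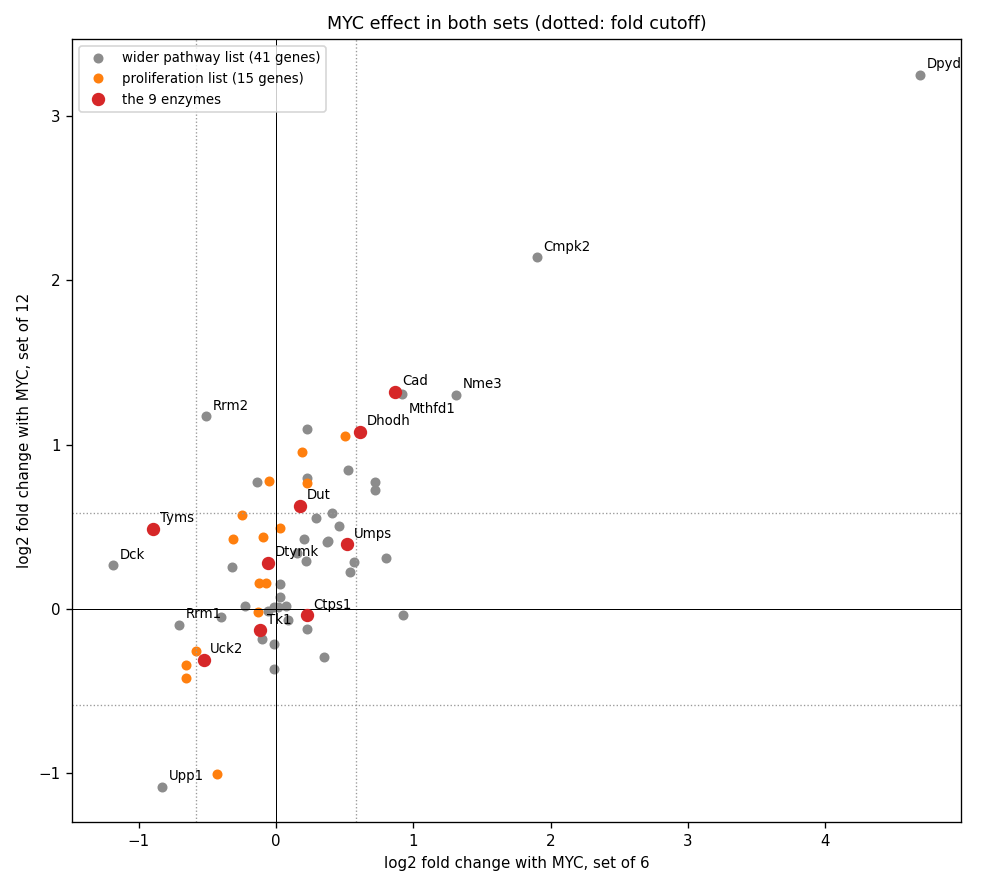
Log2 fold change with MYC in the set of 6 (horizontal axis) and the set of 12 (vertical axis) for the 9 enzymes (red), the 41 genes of the wider list (grey) and 15 proliferation genes (orange), 1 point per gene, with the fold cutoff dotted. Cad and Dhodh lie past the cutoff on both axes near Mthfd1, and Tyms lies with Dck and Rrm2 on the upper left.

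Genes of proliferation were set beside the enzymes because dTMP enzymes vary with the cell cycle. Of 15 such genes, 0 rose and 2 fell (Ccne2 and E2f1) with MYC in the set of 6 (12.5% and 14.3% of all genes), where limma called 3 as higher and 10 as lower at an unadjusted p below 0.05, against 37.8% and 39.7% of all genes. In the set of 12, 4 rose (Mcm4, Mcm5, Mcm7 and Top2a) and 1 fell (Ccne1), where 10.8% and 14.7% of all genes did. Their median log2FC was -0.13 and 0.42. When the difference between the sets was tested, 4 of the 15 passed as higher in the set of 12 (Top2a, Mcm3, Mcm5 and Mcm6). Of all genes, 16.5% passed in either direction. The median difference was 0.46, and 12 of the 15 were higher at an adjusted p below 0.05, against 24.8% of all genes. Ccne1 (-0.57) was lower by that rule. Rrm1, Rrm2 and, of the enzymes, Tyms, Cad, Dhodh, Dut, Dtymk and Uck2 were higher by it too. Ctps1 was lower, and Tk1 and Umps were not called. With siAHR-2 none of the 15 passed, where 10 had an unadjusted p below 0.05 in limma against 40.4% of all genes, and with siAHR-5 Pcna fell by a log2FC of 0.84, where 2.33% of all genes passed. With siAHR-5, 11 of the 15 had an unadjusted p below 0.05 in limma, against 47.8% of all genes, and at an adjusted p below 0.05 there were 7 lower and 3 higher, against 18.1% and 21.1%. The part of proliferation in the values of the enzymes was not tested.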

How the data were processed

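RNA-seq was performed on poly-A RNA from 18 cultures, 3 in each of 6 groups. Groups and replicate numbers were taken from the sample labels. The authors aligned reads to rn6 with HISAT2 2.1.0, left out genes whose reads totalled fewer than 10, and used DESeq2 to normalize the others. They deposited log2 values for 13188 genes. The read counter, annotation and strand setting are not given in the sources used here. The values are named log CPM, but taken off the log scale they do not add up to the same total in each library, as CPM would, so the transformation is unknown, and no counts or depth can be recovered.

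Differences were tested with limma 3.58.1 in R 4.3.3 (lmFit, then eBayes with a mean-variance trend, 2-sided) on the values as deposited, with only the groups compared in each fit and Benjamini-Hochberg adjustment over all 13188 genes. The cutoffs were a fold of 1.5 and an adjusted p of 0.01. An adjusted p below 0.05 with no fold cutoff was an alternative. Other alternatives were all 18 libraries in 1 fit, no trend, quantile normalization, median centring, a filter on a mean log2 value of 1, an added pseudocount of 1, the replicate block, and leaving out each library. Intervals are 95% intervals. The fit was tested on simulated data. All 9 enzymes are named, as are the 2 genes most like each enzyme. Genes of the wider list are named if past the cutoffs with MYC, between the sets or against siCtrl, or if paired with an enzyme by role. The enzymes and the lists were chosen with earlier results of these data known. Python 3.11.15 with matplotlib 3.10.9 drew the figures.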

Additional observations from a re-analysis of the deposited data

Results flagged for a closer look

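The MYC effect on Tyms differed between the sets when the difference itself was tested in limma. It was higher in the set of 12 by a log2FC of 1.38, with every culture with MYC below those without it in the set of 6 and above them in the set of 12. The difference stayed between 1.35 and 1.47 over the alternatives. The cause was not tested.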

How the results depend on the processing

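Of 810 log2FC values of the 9 enzymes under the alternatives, 758 kept direction and side of the cutoffs, 2 lost the call, 37 gained one, mostly through the looser cutoff, and 13 changed sign. None of those 13 had passed both cutoffs, but Tk1 in the set of 6 is one of the 8 enzymes called by the looser rule. At an adjusted p below 0.05 with no fold cutoff, 8 enzymes were called with MYC in the set of 6, 8 in the set of 12, 7 with siAHR-2, 5 with siAHR-5, 8 between the siRNAs, and 7 for the difference between the sets, or 6 to 8 over the other alternatives: Uck2 or Ctps1 lost the call in some, and Umps gained it, as lower, in the fit to all 18 libraries and without replicate 1 of myc-/- or of myc-/- + MYC. For the wider list the counts were 31, 30, 18 and 17 of 41 in the first 4 of these, where 76.2% and 64.7% of all genes were called with MYC, 15.5% as lower and 13.7% as higher with siAHR-2, and 18.1% and 21.1% with siAHR-5. By the looser rule, Tk1 lost its call in the set of 6 after quantile normalization. Dtymk gained one there, as lower, with median centring and without myc-/- + MYC replicate 1. In the set of 12, Tk1 lost its call with quantile normalization, median centring, or without siCtrl replicate 1 or 3 or myc-/- replicate 3. Quantile normalization added Ctps1, as higher. With siAHR-2, Ctps1 lost it in the fit to all 18 libraries, after quantile normalization and without any 1 siAHR-2 culture. Quantile normalization gave log2FC of opposite sign for Dtymk (0.0115) and Tk1 (0.0503) in the set of 6 and Ctps1 (0.16) in the set of 12. Median centring did so for Ctps1 (0.0037) in the set of 12, for Tyms (-0.0137) and Dtymk (-0.017) with siAHR-2, for Tk1 (-0.0155) with siAHR-5 and for the set difference of Tk1 (0.0686). Leaving out 1 library gave -0.0124 to 0.0421 for Tyms and -0.0245 to 0.0494 for Dtymk with siAHR-2, and -0.0402 to 0.0137 for the set difference of Tk1. The cause was not tested.

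The replicate numbers were not taken to pair the cultures, as in no comparison were all 3 correlations of same-numbered deviations over 0.1. Their means were -0.0287 and -0.0136 for MYC in the smaller and the larger set, 0.0101 for siAHR-2, 0.0974 for siAHR-5 (with single values of -0.065 to 0.218) and 0.0889 between the siRNAs. With the replicate block, 3 enzymes passed with MYC in each set and 0 with either siRNA. The block cannot move a log2FC here, as each group has all 3 numbers. The unknown depth limits what can be said of small differences.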
